A study of Mus musculus with 18 samples.

Results

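The genes described here are 32 genes of cholesterol and fatty acid synthesis, out of 32285 genes measured in 18 RNA libraries of mouse bone marrow cells. They were chosen by gene name as enzymes and regulators of sterol and lipid synthesis. No measured value entered that rule, but the genes were chosen with earlier results of these data known. By their role, 7 act in the mevalonate branch, 11 between squalene and cholesterol, 4 in regulation and sterol transport, and 10 in fatty acid synthesis. The cells were CD45.2+ cells of C57BL/6 mice, labelled iLS and sorted by flow cytometry, and polyadenylated RNA was sequenced. They carried the fusion gene BRD9-NUTM1 (BN1), the fusion gene AFF1-NUTM1 (AFFN1) or no fusion (control), and each genotype was sequenced in 3 libraries from day 14 and 3 from day 6. Fusions of NUTM1 are known from acute leukaemia of early B cells, and control cells carry CD45.2 alone in the labels. How the fusions were delivered, and whether libraries of a group came from separate animals or cultures, is not given in the sources used here, so p-values measure only the spread between these libraries.

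Cells build cholesterol and fatty acids from acetyl-CoA. The sterol pathway runs from acetyl-CoA through mevalonate and farnesyl diphosphate to squalene, and then through lanosterol to cholesterol, while fatty acid synthesis runs through malonyl-CoA to palmitate, which is then elongated and desaturated. Most of these genes are known targets of the transcription factors SREBP1 and SREBP2, encoded by Srebf1 and Srebf2. When sterols are plentiful, INSIG proteins hold the SREBP carrier SCAP in the endoplasmic reticulum, and when sterols fall short SREBP moves to the Golgi and is cut into its active form. Dividing lymphocyte precursors are known to depend on this pathway for new membrane.

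The promoter stretches of 5 of these genes are shown because their values carry the results that follow. All are from RefSeq on GRCm38.p6, the assembly of the mm10 build the counts were made on, are written 5′ to 3′ on the gene's own strand, and end before the annotated start site. Capitals mark the letters TCACNCCAC, a sterol regulatory element (SRE) to which SREBP is known to bind, and ATTGG, the inverted CCAAT box bound by NF-Y, on the strand shown. The stretches are Hmgcs1 at chr13:119690101-119690350 on the plus strand, Acat2 at chr17:12960748-12960975 on the minus strand, Lss at chr10:76531355-76531587 on the plus strand, Elovl6 at chr3:129532136-129532354 on the plus strand and Insig1 at chr5:28071162-28071362 on the plus strand.
Hmgcs1: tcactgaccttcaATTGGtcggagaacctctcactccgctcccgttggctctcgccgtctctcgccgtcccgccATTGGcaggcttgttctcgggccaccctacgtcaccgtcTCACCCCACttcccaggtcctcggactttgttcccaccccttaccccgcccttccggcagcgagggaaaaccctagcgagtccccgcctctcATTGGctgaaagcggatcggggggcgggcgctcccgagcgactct
Acat2: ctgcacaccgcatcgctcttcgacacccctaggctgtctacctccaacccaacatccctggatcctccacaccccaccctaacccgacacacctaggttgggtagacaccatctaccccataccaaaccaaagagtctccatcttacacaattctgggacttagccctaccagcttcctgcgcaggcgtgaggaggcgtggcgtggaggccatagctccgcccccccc
Lss: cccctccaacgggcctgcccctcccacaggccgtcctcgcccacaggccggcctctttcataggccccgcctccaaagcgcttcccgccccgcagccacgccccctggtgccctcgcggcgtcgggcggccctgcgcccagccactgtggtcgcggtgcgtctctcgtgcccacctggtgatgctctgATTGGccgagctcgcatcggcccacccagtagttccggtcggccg
Elovl6: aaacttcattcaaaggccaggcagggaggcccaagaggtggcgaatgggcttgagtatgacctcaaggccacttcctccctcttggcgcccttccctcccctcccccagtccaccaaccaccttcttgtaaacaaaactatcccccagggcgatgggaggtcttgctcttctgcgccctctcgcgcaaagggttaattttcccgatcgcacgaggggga
Insig1: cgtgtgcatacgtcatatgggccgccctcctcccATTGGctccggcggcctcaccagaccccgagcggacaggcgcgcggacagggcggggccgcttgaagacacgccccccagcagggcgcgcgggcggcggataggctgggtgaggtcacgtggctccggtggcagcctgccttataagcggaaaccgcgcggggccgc
RefSeq promoter windows, from 250 bases before to 50 bases after a start site, were found for 25 of the 32 genes, 31 windows in all. Searched on both strands, the SRE letters were in the window of Hmgcs1 alone, 3.23% of the 31 windows, against 1.24% of all 32851 promoter windows of the table. ATTGG was in 71.0% of the 31 windows, against 37.4% of all windows. The GC box GGGCGG was in 74.2% against 35.7%, and the E-box CACGTG in 12.9% against 7.15%. These matches are descriptions of sequence and not measurements of binding, and none of these motifs contains another.

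The libraries held 17813841 to 18383449 expected counts on day 14 and 14182539 to 17702578 on day 6. The B lineage markers Vpreb1, Vpreb2, Igll1, Ebf1, Pax5 and Rag1 were read in every library at 186 CPM or more, and the pan-leukocyte marker Ptprc lay between 185 and 408 CPM, where CPM is the count scaled to a common library size by TMM over all libraries. Of the markers of other cell types, Ms4a3, Cd8a, Gzmb, Ncr1 and Lep had 0 counts in all 18 libraries, and Mpo, Elane, S100a8, S100a9, Cd3e and Plin1 reached at most 0.118 CPM. Other genes of the same lists were read in every library, among them Lyz2 at 14.5 to 133 CPM, Fcgr3 at 5.14 to 57.4, Nkg7 at 4.98 to 48.5 and Fn1 at 7.98 to 56.2. The whole lists summed to 29.98 to 197.5 CPM for myeloid genes, 10.6 to 58.2 for T and NK cell genes, 1.90 to 39.4 for erythroid genes, 13.1 to 133 for stromal genes and 0.229 to 6.84 for adipocyte genes. The part of such cells in the results was not tested. Nutm1 had 0 counts in every fusion library on both days and 0 to 2 in control libraries. Whether the fusion transcripts can be counted under the mouse gene is not given in the sources used here, so this is no check of the labels. Xist had 3419 to 7602 counts in each day 14 library and 1 to 5 on day 6, while the Y-linked gene Ddx3y had 0 to 1 counts on day 14 and 1425 to 2291 on day 6. The source of the cells thus differed between the days, and day and source cannot be told apart. On day 6, a list of 10 immediate early and stress genes summed to 1739 CPM in BN1 library 3 and 779.9 CPM in control library 3, against 351 to 431 CPM in the other 7 libraries. In bulk libraries such as these, fewer cells of a type and less RNA per cell cannot be told apart.

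Per kilobase of exon, Scd2 had the highest mean level of the 32 genes on both days. It encodes a stearoyl-CoA desaturase, which puts a double bond into saturated fatty acids. Its level was 190.5 ± 25.6 CPM per kb on day 14 and 89.4 ± 29.7 on day 6 (SD over the 9 libraries of a day). On day 14 its range was above that of every other gene, while on day 6 its range of 50.2 to 131 CPM per kb overlapped that of Acly, at 54.1 to 75.5. On day 14 it was followed by Fads2 at 103.5 ± 20.7, Acly at 80.6 ± 13.8, Srebf2 at 74.8 ± 7.51 and Fasn at 73.3 ± 23.1 CPM per kb, and these 4 overlapped in range. On day 6 the next were Acly at 60.6 ± 6.50, Fads2 at 52.4 ± 12.2 and Srebf2 at 49.5 ± 3.22 CPM per kb, which overlapped as well. Srebf2 was above Srebf1 on both days, at 74.8 against 32.2 CPM per kb on day 14 and 49.5 against 17.65 on day 6, and the ranges of the pair did not overlap. At the low end were Tm7sf2, Acss2 and Me1, all at most 2.06 CPM per kb in every library. Me1, malic enzyme, a source of NADPH for fatty acid synthesis, lay between 0 and 0.526 CPM in all libraries, was removed by the filter on low counts, and was not tested. The other 31 genes passed it in every fit, Scd1 on day 6 only through its AFFN1 libraries.

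**Figure D1:**
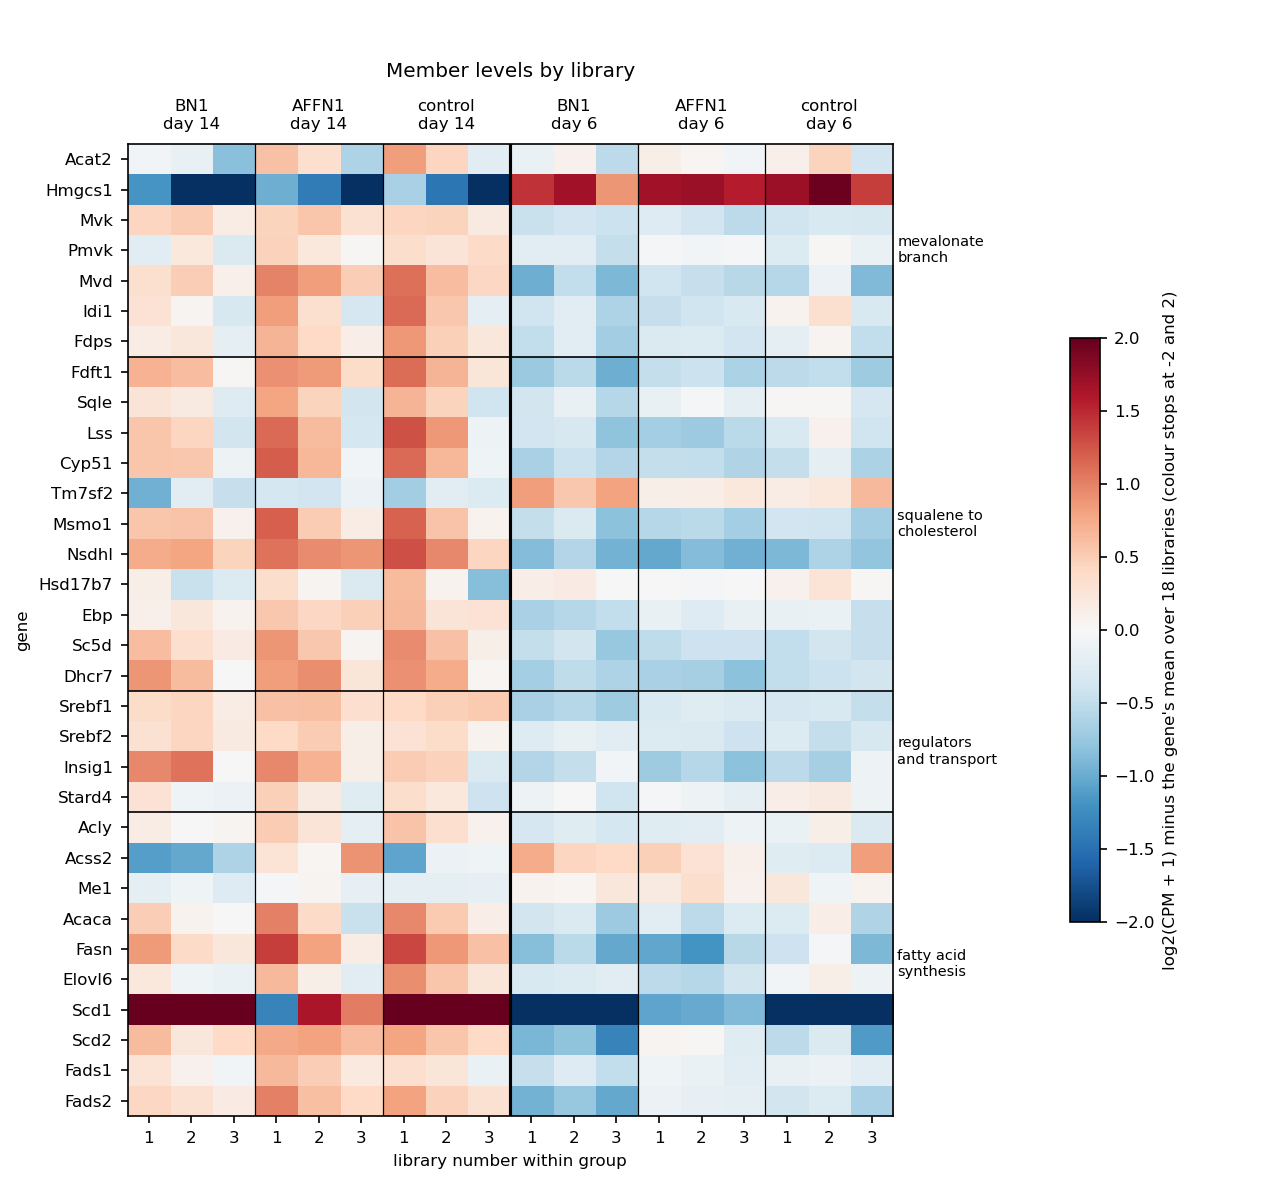
Level of each of the 32 genes (rows, by role) in each of the 18 libraries (columns, by group and library number), as log2(CPM + 1) minus the gene's mean over all libraries; red is above and blue below that mean. Most rows are red on day 14 and blue on day 6, Hmgcs1 is the reverse, and on day 14 for most genes the library 3 column is the palest red or turns blue in each group.

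On day 14, libraries that share a number also share a code in their descriptions, and for these genes the number set much of the spread. The library numbered 3 was the lowest in all 3 groups for 21 of the 31 genes tested (67.7%), against 9.37% of all 11657 genes tested on that day. The library numbered 1 was the highest in all 3 groups for 16 of 31 (51.6%), against 9.84% of all genes. The median log2 ratio of library 1 to library 3 was 0.63 over the 31 genes and -0.01 over all genes. Lss, lanosterol synthase, which closes the sterol rings, had the largest such ratio at 1.26. Cyp51, the lanosterol demethylase, had 229, 227 and 144.5 CPM in BN1 libraries 1, 2 and 3, 358, 245 and 149 in AFFN1 libraries and 342, 247 and 145 in control libraries. At number 3 the genotypes lay within a few CPM of each other, and at number 1 BN1 was lower than both other genotypes. Sqle, squalene epoxidase, had 122, 115.5 and 84.6 CPM in BN1 libraries, 177, 138 and 78.9 in AFFN1 libraries and 163, 139 and 76.6 in control libraries, with the same order of numbers. Scd1, Acss2 and Tm7sf2 were the exceptions, with a mean ratio of library 1 to library 3 below 0. The day 14 tests below therefore hold the library number as a block. On day 6, where equal numbers carry no shared code, library 3 was the lowest in all groups for 10 of 31 genes (32.3%), against 5.39% of all 12068 genes tested.

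**Figure D2:**
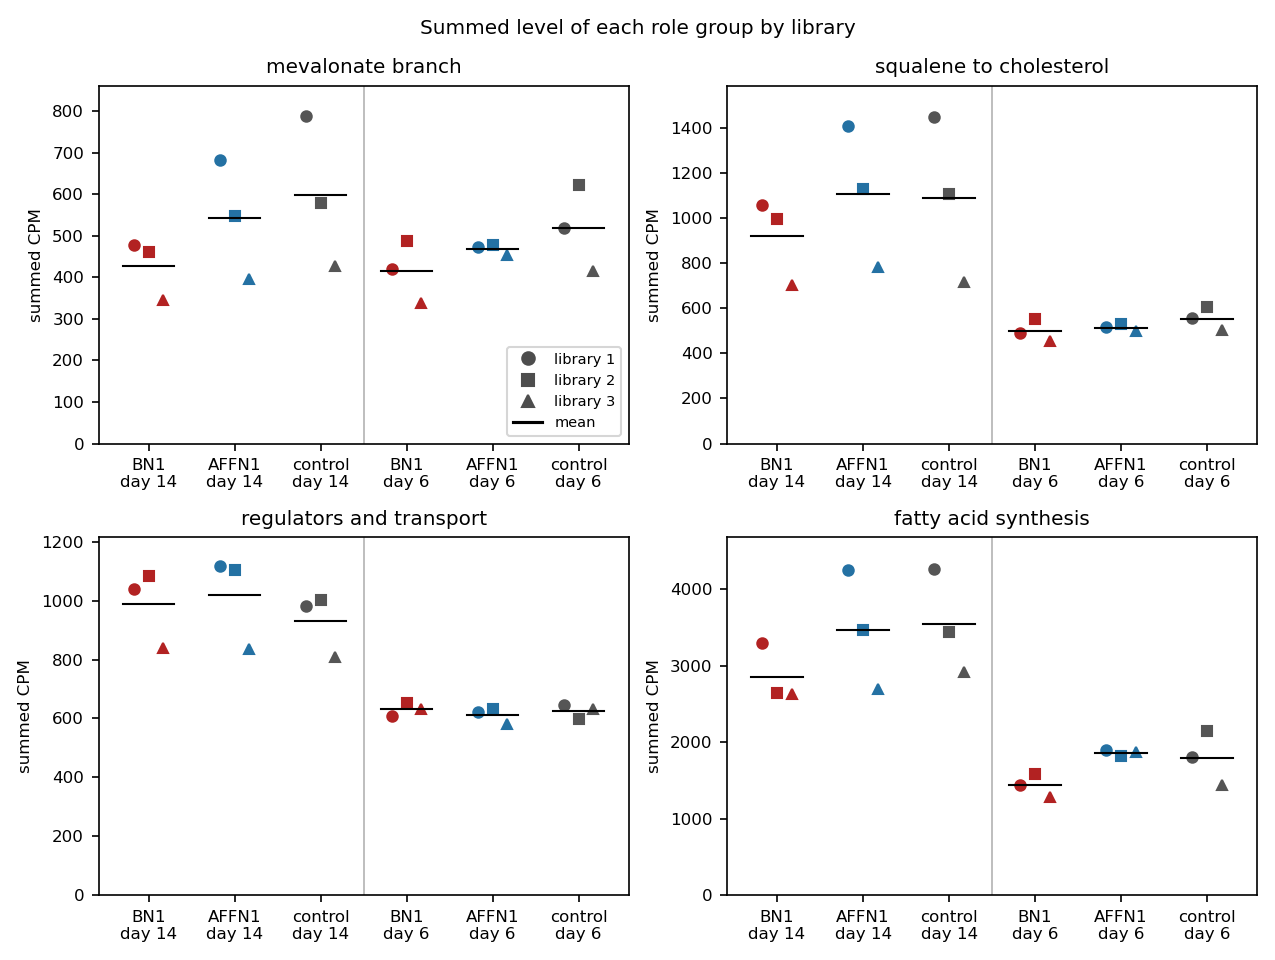
Summed CPM of the 4 role groups (panels) in each library, by genotype and day, with the library number as the symbol and a bar at the mean of 3. On day 14 library 3 is the lowest of its group in each panel, and the sums of the squalene to cholesterol genes run from 703 CPM to 1446 CPM on that day, above the day 6 range of 453 to 605.5 CPM.

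In BN1 cells on day 14, 5 of the 31 genes fell and 1 rose relative to control cells, with library number as a block (edgeR's quasi-likelihood test, adjusted p under 0.05). That is 6 of 31, against 11.6% of all genes called in this comparison, 4.95% higher and 6.61% lower. The genes that fell were Acat2, Idi1 and Fdps of the mevalonate branch, Lss of the sterol steps and Elovl6 of fatty acid synthesis, and the gene that rose was Insig1. The log2 change was negative for 29 of the 31 genes, with a median of -0.26, where the median of all genes was 0.00. BN1 was below control in all 3 numbered pairs for 19 of the 31 genes and above it in all 3 for 2, against 24.6% and 25.5% of all genes. The groups did not overlap for 3 of the 31 genes, against 28.1% of all genes. Without the block edgeR called none of the 31 and 0.0257% of all genes, and when 1 library was left out it called 0 to 6 of the 31 and 0.236% to 11.3% of all genes.

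In the mevalonate branch all 7 log2 changes were negative, with a median of -0.47, and 3 genes passed the test. Acat2, the thiolase that joins acetyl-CoA units at the head of the branch, had 55, 51.3 and 31.4 CPM in BN1 libraries 1, 2 and 3 and 102, 76.6 and 48.8 CPM in control libraries 1, 2 and 3. BN1 was lower in each numbered pair, although the groups as wholes overlapped. The log2 change was -0.72 ± 0.12 (SE; adjusted p = 0.0122). Idi1, which isomerizes isopentenyl diphosphate, had 157, 132 and 102 CPM in BN1 libraries and 280.5, 185 and 112 CPM in control libraries, a log2 change of -0.50 ± 0.14 (adjusted p = 0.0425). Its pairs were far apart at number 1 and close at number 3. Fdps, farnesyl diphosphate synthase, had 153.5, 161 and 121 CPM in BN1 libraries and 252, 193 and 160.5 CPM in control libraries, a log2 change of -0.48 ± 0.12 (adjusted p = 0.0314). BN1 library 2 alone reached the level of the lowest control library. Of the 4 others, Pmvk (phosphomevalonate kinase) and Mvd (the decarboxylase that follows it) had log2 changes of -0.47 ± 0.17 and -0.43 ± 0.14 and missed the threshold at adjusted p = 0.0924 and 0.0689. Hmgcs1, the synthase that makes HMG-CoA, had a log2 change of -0.34 ± 0.20, and Mvk, mevalonate kinase, of -0.01 ± 0.11.

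All 11 genes from squalene to cholesterol had negative log2 changes as well, with a median of -0.21, and Lss passed the test. Lss had 53.4, 48.6 and 27.8 CPM in BN1 libraries 1, 2 and 3 and 88.3, 66.4 and 33.6 CPM in control libraries, a log2 change of -0.50 ± 0.13 (adjusted p = 0.0351). BN1 was lower in each pair. The 10 others, among them Fdft1 (squalene synthase, -0.26 ± 0.11), Sc5d, a desaturase of the sterol ring, and Dhcr7 (a reductase of the last steps, -0.08 ± 0.11), were not called. Ebp, a sterol isomerase encoded on the X chromosome, had groups that did not overlap, with 49.1, 54.0 and 48 CPM in BN1 libraries and 72.4, 55.0 and 56.5 CPM in control libraries, yet was not called at a log2 change of -0.29 ± 0.12 (adjusted p = 0.144).

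Of the 4 regulators and transport genes, Insig1 rose. INSIG1 retains the SREBP carrier in the endoplasmic reticulum, and its gene is itself a known SREBP target. Its level was 211, 231 and 108 CPM in BN1 libraries 1, 2 and 3, 211, 175 and 117 CPM in AFFN1 libraries and 153, 148 and 87.8 CPM in control libraries. BN1 was above control in each of the 3 pairs, with a log2 change of 0.45 ± 0.12 (adjusted p = 0.0421), in the opposite direction to the synthesis genes that passed. The log2 change was -0.18 ± 0.12 in Srebf1, 0.05 ± 0.11 in Srebf2 and, in Stard4, a carrier of sterol between membranes, -0.03 ± 0.12, and none of them was called.

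In fatty acid synthesis all 9 tested genes had negative log2 changes in BN1 cells, with a median of -0.36. Elovl6, which elongates palmitate, had 241, 195 and 191 CPM in BN1 libraries 1, 2 and 3 and 399.5, 308 and 246.5 CPM in control libraries. These groups did not overlap, and the log2 change was -0.60 ± 0.12 (adjusted p = 0.0185). Fasn, fatty acid synthase, missed the threshold at a log2 change of -0.46 ± 0.14 (adjusted p = 0.0555), with 833, 607 and 540.5 CPM in BN1 libraries and 1175, 841 and 693 CPM in control libraries. Acaca, acetyl-CoA carboxylase, had a log2 change of -0.36 ± 0.16, Acly, which makes acetyl-CoA from citrate, of -0.27 ± 0.13, and the desaturase genes Scd2, Fads2 and Fads1 of -0.17 ± 0.13, -0.25 ± 0.11 and -0.06 ± 0.10. None of these 5 was called. Scd1 and Acss2, whose levels are given below, were not called either, and BN1 was below control in each numbered pair of both.

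**Figure D3:**
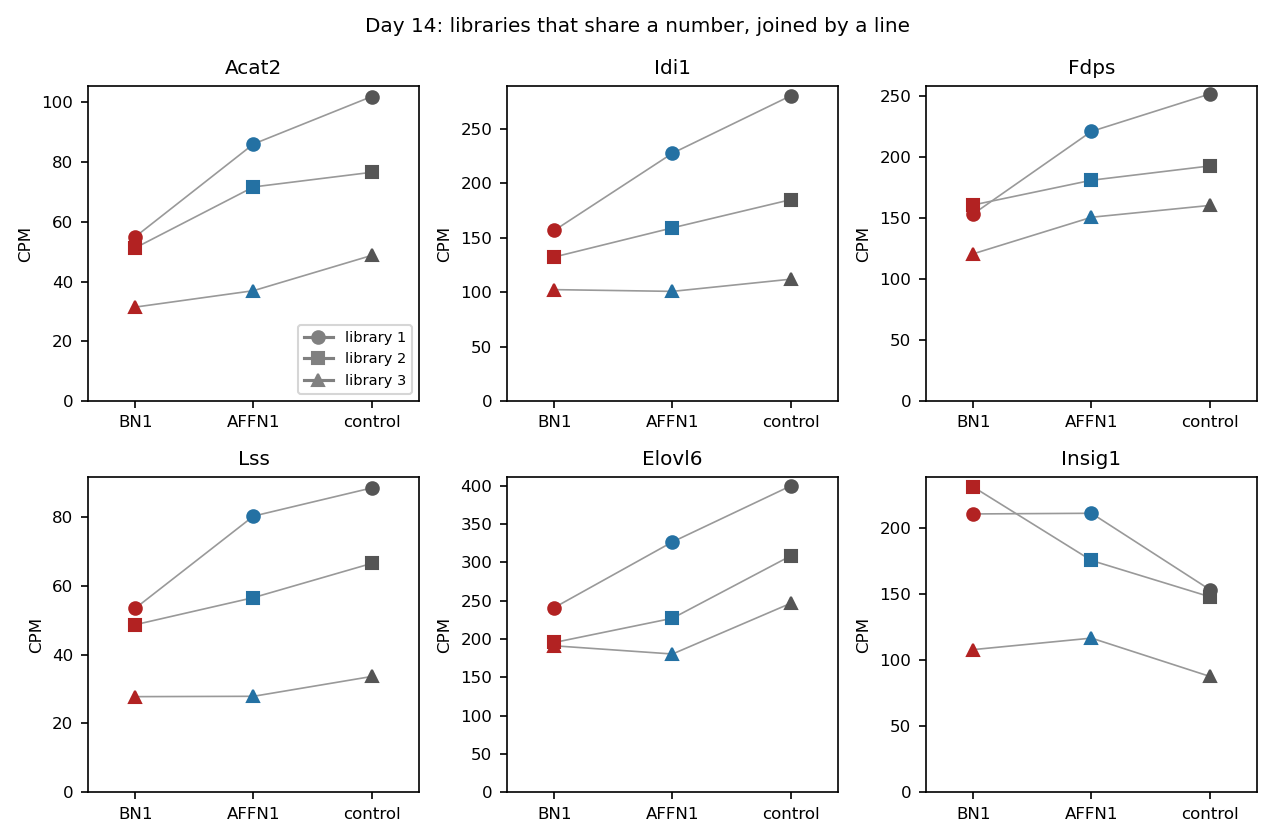
CPM on day 14 of the 6 genes called between BN1 and control cells, by genotype, with libraries of the same number joined by a line. In Acat2, Idi1, Fdps, Lss and Elovl6 each line is lower at BN1 than at control, in Insig1 each is higher, and the lines of different numbers lie apart from one another.

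These 6 calls were sensitive to single libraries. Fdps was lost whichever of the 6 BN1 and control libraries was left out, with adjusted p = 0.0526 to 0.153. Elovl6, Idi1, Lss and Insig1 were lost without any of the 6 except BN1 library 3, with adjusted p = 0.0558 to 0.0845 for Elovl6, 0.0964 to 0.195 for Idi1, 0.089 to 0.163 for Lss and 0.0983 to 0.142 for Insig1. Acat2 was lost without control library 1 (adjusted p = 0.0572) or control library 3 (0.0744). Over these 6 omissions the log2 change kept its sign in all 6 genes. In the same libraries the B lineage list summed to 10480 to 12140 CPM in BN1 libraries and 7100 to 10000 CPM in control libraries. Of its genes, Blnk and Rag1 were higher in BN1 cells. Vpreb2 was lower in each numbered pair, with 314, 293 and 418 CPM in BN1 libraries and 419, 297 and 488 CPM in control libraries. The T and NK cell list summed to 15.8 to 28.7 CPM in BN1 libraries and 10.6 to 23.6 CPM in control libraries, and the myeloid list to 47.1 to 97.6 CPM in BN1 libraries and 29.98 to 57.1 CPM in control libraries. The 12 proliferation genes summed to 4624 to 4968 CPM in BN1 libraries and 4552 to 6051 CPM in control libraries. The part of these differences in the results was not tested.

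In AFFN1 cells on day 14, none of the 31 genes was called against control cells by edgeR, where 0.558% of all genes were called, and the groups did not overlap for 2, against 9.32% of all genes. At an unadjusted p under 0.05 there were 5, against 12.2% of all genes, and DESeq2 called 1, against 2.4% of all genes. The median log2 change was 0.02. AFFN1 was below control in all 3 numbered pairs for 8 of the 31 genes and above it in all 3 for 6, against 19.8% and 20% of all genes. The AFFN1 and BN1 comparisons share their control libraries, so they are not independent of each other. Of the 6 genes called in BN1 cells, Acat2, Idi1, Fdps, Lss and Elovl6 were below control in all 3 numbered pairs in AFFN1 cells as well, with log2 changes of -0.26 ± 0.12, -0.24 ± 0.13, -0.14 ± 0.12, -0.23 ± 0.13 and -0.41 ± 0.12, and Insig1 was above it in all 3 at 0.36 ± 0.12. Their adjusted p ranged from 0.207 for Elovl6 to 0.676 for Fdps.

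The widest gap in AFFN1 cells was in Scd1, the second stearoyl-CoA desaturase gene, at chr19:44394455-44407879 on the minus strand of mm10, close to Scd2 at chr19:44293674-44306864 on the plus strand. Scd1 had 1.76, 20.6 and 13.3 CPM in AFFN1 libraries 1, 2 and 3, against 52.7, 97.94 and 75.0 CPM in control libraries, so the groups did not overlap. The log2 change was -2.91 ± 0.54 and was not called (adjusted p = 0.138). AFFN1 library 1 stood apart from the other two of its group. Without that library the log2 change was -2.36 (adjusted p = 1.56e-05), while without any other AFFN1 or control library it was not called (adjusted p = 0.227 to 0.596). Without all libraries numbered 1 it was -2.39 (adjusted p = 3.31e-08), DESeq2 gave -3.00 (adjusted p = 0.000254), a fit without robust estimation -2.91 (adjusted p = 0.022), and a fit on all 18 libraries -2.90 (adjusted p = 0.0023). It was not called with RLE scaling (adjusted p = 0.142), without the low-count filter (0.253), without the block (0.51), or without the libraries numbered 2 (0.482) or 3 (0.703). BN1 libraries had 32.7, 55.1 and 42.4 CPM, above every AFFN1 library. They overlapped the control libraries as wholes but were below control in each numbered pair. Scd1 was not called between BN1 and control cells in the main test. Without the libraries numbered 1 it was called lower there too (-0.85, adjusted p = 0.00382). Scd2 did not follow Scd1, with 1172, 1206 and 1062 CPM in AFFN1 libraries and 1195, 1017 and 914 CPM in control libraries (log2 change 0.13 ± 0.13, adjusted p = 0.723).

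Set directly against AFFN1 cells on day 14, BN1 cells had negative log2 changes in 29 of the 31 genes, with a median of -0.26, and edgeR called none of them, where 0.18% of all genes were called, and the groups did not overlap for 4 (Nsdhl, Ebp, Acss2 and Scd1), against 16.8% of all genes. At an unadjusted p under 0.05 there were 11, against 16.6% of all genes, and DESeq2 called 2, against 2.35% of all genes. Those 2 were Acss2, which makes acetyl-CoA from acetate, and Scd1. Acss2 had 3.77, 4.04 and 5.64 CPM in BN1 libraries and 11.3, 9.47 and 18.1 CPM in AFFN1 libraries, without overlap, and 3.93, 8.41 and 8.62 CPM in control libraries. BN1 was lower than AFFN1 in each pair, with a log2 change of -1.52 ± 0.25 (adjusted p = 0.0531, and 0.000166 by DESeq2). Without AFFN1 library 2 it was called (-1.75, adjusted p = 0.0344). Acss2 overlaps the genes Gss, Ggt7 and Acss2os in the annotation. Whether the counting used strand is not given in the sources used here. Scd1 was higher in BN1 than in AFFN1 cells in each pair, with a log2 change of 2.12 ± 0.54 (adjusted p = 0.18, and 0.0216 by DESeq2), and it was called without AFFN1 library 1 (1.56, adjusted p = 0.00309).

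**Figure D4:**
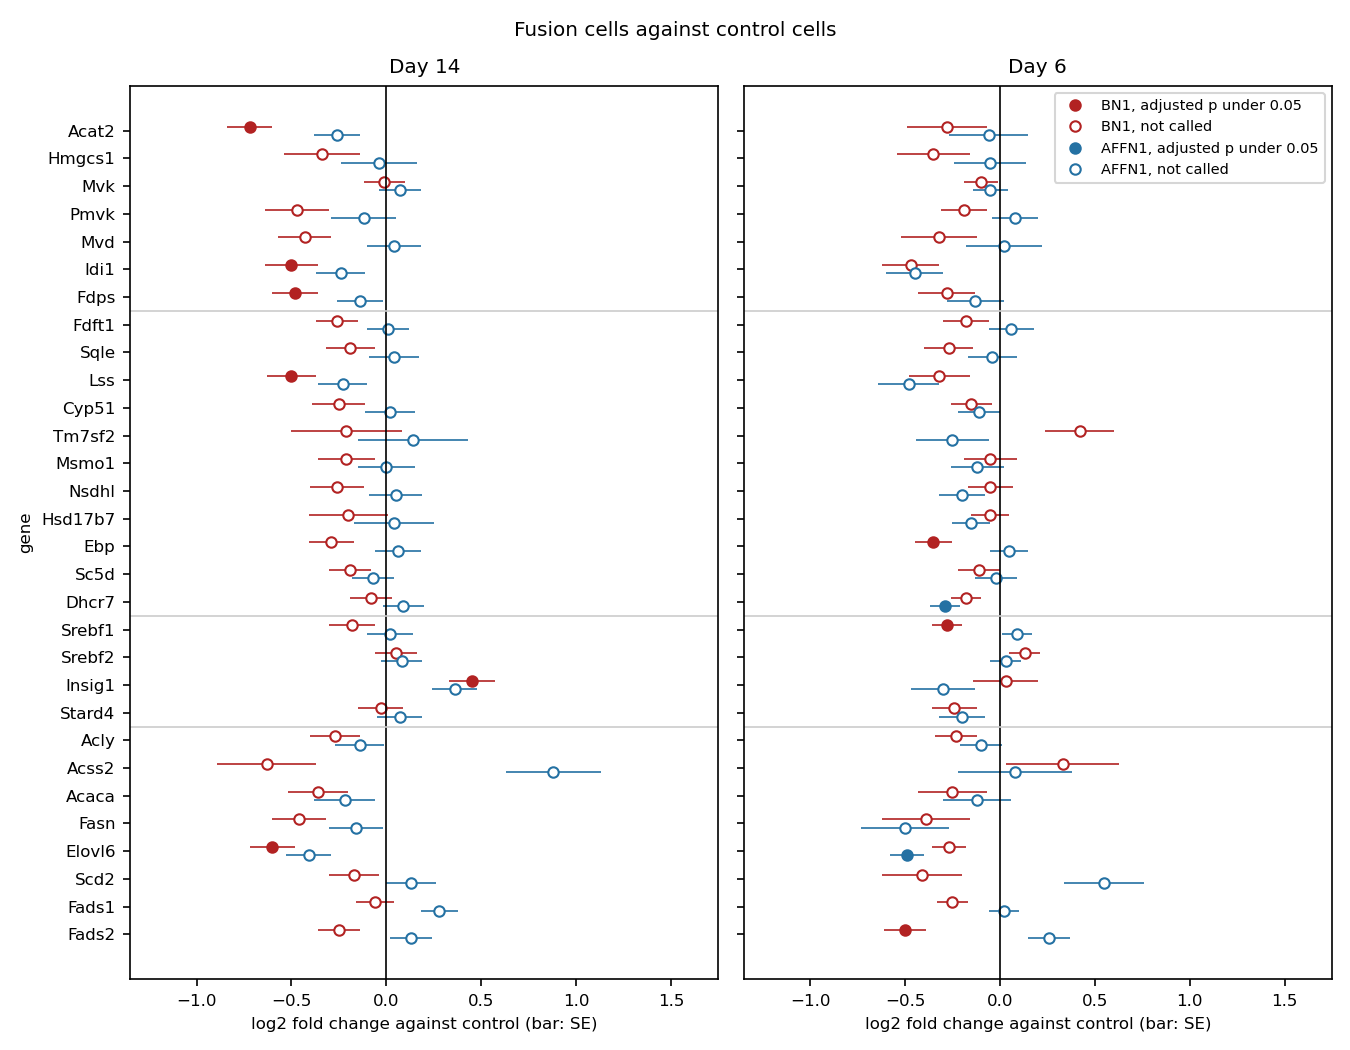
Log2 fold change of BN1 (red) and AFFN1 (blue) cells against control cells for 30 genes on day 14 (left) and day 6 (right), with bars of 1 SE; filled points passed an adjusted p of 0.05. BN1 points lie left of 0 for most genes on both days, and Scd1, whose AFFN1 changes are off the scale, and Me1, which was not tested, are not drawn.

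On day 6, BN1 cells had 3 of 31 genes lower than control cells and 0 higher, where 17.4% of all genes were called, 8.83% higher and 8.53% lower. Fads2, the desaturase that starts the synthesis of long polyunsaturated fatty acids, had 123.2, 140.1 and 116 CPM in BN1 libraries and 185, 197 and 150.5 CPM in control libraries. The groups did not overlap, and the log2 change was -0.50 ± 0.11 (adjusted p = 0.0115). Ebp had 28.8, 30.6 and 32.5 CPM in BN1 libraries and 41.3, 41.6 and 33.2 CPM in control libraries, a log2 change of -0.35 ± 0.10 (adjusted p = 0.0417). Srebf1, which encodes the SREBP that drives fatty acid genes most strongly, had 85.4, 89.9 and 81.5 CPM in BN1 libraries and 106, 107.5 and 95.5 CPM in control libraries, a log2 change of -0.28 ± 0.08 (adjusted p = 0.031). Srebf1 overlaps Rai1 in the annotation. The log2 change was negative for 27 of the 31 genes, with a median of -0.25 against -0.02 over all genes, and the groups did not overlap for 7 of them, against 33.6% of all genes. None of the 7 mevalonate genes was called, although all 7 changes were negative, and Idi1 came closest at -0.47 ± 0.15 (adjusted p = 0.0586).

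The number of day 6 calls in BN1 cells depended on single libraries. Without the 3 libraries numbered 3, of which those of BN1 and control cells had the highest stress gene sums, 11 of the 31 genes were called, against 32.2% of all genes. Ebp, Elovl6, Fads2, Fasn, Idi1, Scd2, Sqle, Srebf1 and Acly were then lower in BN1 cells, with log2 changes of -0.28 to -0.54, and Acss2 (0.93, adjusted p = 0.00267) and Tm7sf2 (0.59, adjusted p = 0.0393) were higher. Without control library 3 alone 12 were called, against 28.6% of all genes, and without BN1 library 3 alone 1, against 12.7%. With BN1 library 1 left out none was called, against 9.31% of all genes, and Fads2 then had an adjusted p of 0.0542. Ebp was lost without any BN1 or control library but control library 3 (adjusted p = 0.0591 to 0.15), and Srebf1 without BN1 library 1 or 3 or control library 1 or 2 (0.0937 to 0.109).

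AFFN1 cells on day 6 differed from control cells most in Scd1. It had 2.36, 2.47 and 2.79 CPM in AFFN1 libraries and 0.168, 0 and 0.05 CPM in control libraries, which were 138 counts in all against 4, and every AFFN1 library was higher. The ratio after scaling for depth was 34 (95% exact counting interval 13 to 126, which covers counting error only), and the fitted log2 change of 4.96 ± 0.59 (adjusted p = 0.000507) is less certain than its SE because it rests on so few control counts. The level stayed low, under 3 CPM. Outside the AFFN1 libraries Scd1 had at most 0.168 CPM on day 6. It thus passed the low-count filter of the day 6 fit only through the group where it was high, so all its day 6 tests rest on that group. Without that filter edgeR called it as well (log2 change 4.97, adjusted p = 0.00012). In total 3 of 31 genes were called, 1 higher and 2 lower, where 12.7% of all genes were called, 7.79% higher and 4.87% lower. The groups did not overlap for 8 of the 31, against 32.3% of all genes. Elovl6 fell, with 144, 139.7 and 162 CPM in AFFN1 libraries and 201, 227 and 195 CPM in control libraries (log2 change -0.49 ± 0.09, adjusted p = 0.00539). These groups did not overlap. Dhcr7 fell by 0.29 ± 0.08 on the log2 scale, with 62.6, 62.3 and 55.5 CPM in AFFN1 libraries and 69.9, 73.0 and 76.7 CPM in control libraries (adjusted p = 0.0454). It was lost whichever 1 of the 6 libraries was left out (adjusted p = 0.0741 to 0.111), while Scd1 and Elovl6 were called in all 6 omissions. Without control library 3 alone 5 were called, against 18.4% of all genes. Without the libraries numbered 3, 7 of the 31 were called, against 32.1% of all genes. Of the 7, Fasn (-0.91), Idi1 (-0.64), Lss (-0.63) and Elovl6 (-0.60) were lower in AFFN1 cells, and Acss2 (0.71), Scd2 (0.43) and Scd1 (4.65) higher.

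BN1 and AFFN1 cells were also set against each other on day 6. Of the 31 genes 5 were lower in BN1 than in AFFN1 cells and 1 was higher, where 11.2% of all genes were called, 4.99% higher and 6.19% lower. The groups did not overlap for 11 of the 31, against 35% of all genes. Scd2 had 368, 395 and 274 CPM in BN1 libraries and 716.5, 701 and 582 CPM in AFFN1 libraries, without overlap (log2 change -0.95 ± 0.21, adjusted p = 0.0163). The control libraries, at 479, 566 and 316 CPM, were below every AFFN1 library and overlapped the BN1 libraries. Fads2 differed by -0.76 ± 0.11 (adjusted p = 0.00145), with 123.2, 140.1 and 116 CPM in BN1 libraries and 218, 213 and 209 CPM in AFFN1 libraries. Scd1 had 1 count over the 3 BN1 libraries and 138 over the 3 AFFN1 libraries, a ratio of AFFN1 to BN1 of 139 with a counting interval of 24.6 to 5530. Srebf1 (-0.37 ± 0.08, adjusted p = 0.0115) and Ebp (-0.40 ± 0.10, adjusted p = 0.0321) were lower in BN1 cells too. Tm7sf2, a sterol reductase, was higher, with 9.08, 7.17 and 8.85 CPM in BN1 libraries and 5.07, 5.16 and 5.53 CPM in AFFN1 libraries (0.66 ± 0.18, adjusted p = 0.0432). Tm7sf2 overlaps Vps51 in the annotation.

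Fads2 stayed called in that comparison in all 6 omissions of a library. Scd1 did too, but it passed the low-count filter only through its AFFN1 libraries, so its omissions add no support. With BN1 library 3 or AFFN1 library 2 left out 2 genes were called, against 7.53% and 5.92% of all genes, and 3 with AFFN1 library 1 left out, against 6.41%. Ebp was lost in all 6 (adjusted p = 0.0546 to 0.107), Tm7sf2 in all but that of BN1 library 2 (0.0832 to 0.139), Scd2 without AFFN1 library 1 or 2 or BN1 library 3 (0.0588 to 0.0638), and Srebf1 without AFFN1 library 2 (0.062) or BN1 library 3 (0.0504). The T and NK cell list summed on day 6 to 52.3 to 58.2 CPM in BN1, 35.5 to 44.9 in AFFN1 and 17.9 to 42.6 in control libraries. Nkg7 was its highest gene, and Cd8a, Gzmb and Ncr1 were at 0. Trac, at 4.03, 4.59 and 3.74 CPM in BN1 libraries, was above every AFFN1 and control library. Klrb1c overlapped between genotypes, at 6.73, 7.63 and 3.52 CPM in BN1, 7.90, 8.05 and 5.53 in AFFN1 and 4.48, 1.80 and 7.76 in control libraries. The adipocyte list, whose cells express Scd1 and Fasn strongly, summed to 0.229 to 4.65, 2.46 to 6.84 and 0.707 to 3.35 CPM in BN1, AFFN1 and control libraries, with Lep at 0 in all 18 libraries and Plin1 and Cfd at 0 in 17. Lpl of that list had 1.12, 3.95 and 1.04 CPM in AFFN1 libraries on day 6, above every BN1 and control library, which reached at most 0.801 CPM. Fabp4 and Plin4 were read too, and their genotypes overlapped. The part of these levels in the results was not tested.

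**Figure D5:**
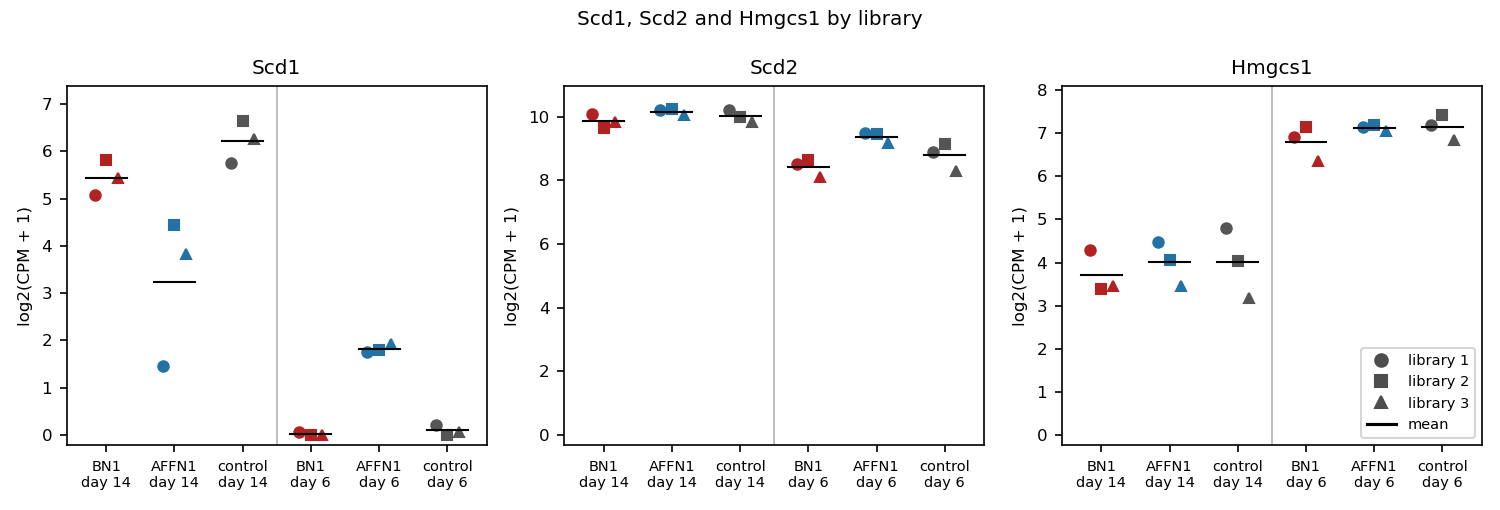
Scd1, Scd2 and Hmgcs1 (panels) in each library as log2(CPM + 1), by genotype and day, with the library number as the symbol and a bar at the mean of 3. Scd1 is near 0 on day 6 outside AFFN1 libraries, which sit at 2.36 to 2.79 CPM, and on day 14 AFFN1 libraries are below the others; Hmgcs1 is lower on day 14 in all 3 genotypes.

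Between the days the set moved far more than between genotypes. In control cells 25 of the 31 genes were higher on day 14 than on day 6 and 2 were lower, that is 27 of 31, where 52.6% of all genes were called, 25.6% higher and 27% lower. The days did not overlap for 20 of the 31, against 51.1% of all genes. The median log2 change was 0.71, against -0.05 over all genes. The day 14 libraries of a genotype were all above its day 6 libraries for 21 of the 31 genes in BN1 cells, against 29.6% of all genes, for 20 in AFFN1 cells, against 27.1%, and for 18 in control cells, against 24.7%. Since day and cell source cannot be told apart, these are differences between the sets of libraries. Nsdhl, an X-linked dehydrogenase of sterol demethylation, had 112, 89.4 and 62.0 CPM on day 14 and 24.1, 29.3 and 26.1 CPM on day 6 in control libraries (log2 change 1.70 ± 0.13, adjusted p = 1.05e-07). Fdft1 had 157, 115.5 and 85.0 CPM on day 14 and 49.2, 50.7 and 43.2 CPM on day 6 (1.28 ± 0.12, adjusted p = 6.11e-07), and it overlaps Ctsb in the annotation. Msmo1, a methylsterol monooxygenase, had 187, 122 and 86.2 CPM on day 14 and 62.8, 62.3 and 50.05 CPM on day 6 (1.11 ± 0.15, adjusted p = 2.26e-05). In these 3 genes the days did not overlap.

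Mvd in the mevalonate branch had 56.6, 40.2 and 34.6 CPM on day 14 and 17.2, 23.6 and 13.6 CPM on day 6 in control libraries (log2 change 1.25 ± 0.18, adjusted p = 3.89e-05). Fasn had 1175, 841 and 693 CPM on day 14 and 347, 449.5 and 247 CPM on day 6 (1.34 ± 0.21, adjusted p = 0.000106). Scd2 had 1195, 1017 and 914 CPM on day 14 and 479, 566 and 316 CPM on day 6 (1.19 ± 0.18, adjusted p = 8.09e-05). The rise thus took in sterol and fatty acid genes alike. Scd1 moved most, with 3610 counts in all on day 14 and 4 on day 6 in control libraries, a ratio of 1000 after scaling for depth, with a counting interval of 392 to 3690. In BN1 cells it had 2123 counts on day 14 and 1 on day 6. By role, the genes called higher on day 14 were 5 of 7 in the mevalonate branch, 9 of 11 from squalene to cholesterol, 3 of 4 regulators and 8 of 9 tested fatty acid genes. Hsd17b7, a keto-reductase of the sterol steps, Acat2, Stard4 and Acss2 were not called. For 3 genes the call rested on single libraries. Sqle was lost without control library 1 or 2 of day 14 or control library 3 of day 6 (adjusted p = 0.147 to 0.191), Idi1 without the same libraries (0.0567 to 0.127), and Pmvk without control library 3 of day 14 (0.0859).

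Hmgcs1 went against the rest of the set. It had 27.1, 15.3 and 8.09 CPM on day 14 and 144.5, 170.4 and 114 CPM on day 6 in control libraries, a log2 change of -3.22 ± 0.22 (adjusted p = 7.87e-08). The same held in BN1 libraries, with 18.5, 9.43 and 10.1 CPM on day 14 and 119.5, 140.4 and 80.9 CPM on day 6, and in AFFN1 libraries, with 21.4, 15.7 and 10.0 CPM on day 14 and 140.0, 145 and 131 CPM on day 6. The ranges were far apart in all 3 genotypes. Its next enzymes in the branch, Mvk and Pmvk, were higher on day 14 in control cells, by 0.71 ± 0.09 and 0.49 ± 0.14. Hmgcs1 lies at chr13:119690379-119708260 on the plus strand of mm10. The genes next to it also differed between the days: Zfp131, 56.9 kb away, had 0 counts in all 9 day 14 libraries and 804 to 1085 in each day 6 library. The antisense gene Gm48342 within Hmgcs1 and the gene Nim1k, 1.8 kb away, had 0 counts on day 14 and 7 to 13 and 1 to 21 on day 6. On the other side, Paip1, 232.2 kb away, was read on both days, at 708 to 880 counts on day 14 and 867 to 1282 on day 6, and Tmem267, 79.3 kb away, had 11 to 75 counts on day 14 and 0 to 6 on day 6. Among all measured genes, 6 with at least 5 CPM in every day 6 library had 0 counts in every day 14 library (Disp1, Eif2s3y, Jrkl, Mia3, Uty and Zfp131), of which Eif2s3y and Uty are Y-linked. In the other direction 1 gene had at least 5 CPM in every day 14 library and 0 counts in every day 6 library. It was 1 of 2 entries named Nnt, 281.4 kb from Hmgcs1, with 445 to 1772 counts on day 14, while the other entry was read on both days. How far a difference in the counting of this region between the days enters the Hmgcs1 level was not tested. Within a day Hmgcs1 was not called in any comparison. The other gene lower on day 14 was Tm7sf2, with 2.48, 3.84 and 3.65 CPM on day 14 and 5.26, 5.53 and 7.81 CPM on day 6 in control libraries (-0.93 ± 0.22, adjusted p = 0.00226).

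The effect of a fusion was also compared between the days in 1 fit over all 18 libraries. For the BN1 effect none of the 31 genes differed between day 14 and day 6 by edgeR, where 5.83% of all genes did. At an unadjusted p under 0.05 there were 2, against 18.5% of all genes, and DESeq2 called none, against 7.56% of all genes. Without control library 3 of day 6 Acss2 was called (-1.48, adjusted p = 0.0123). For the AFFN1 effect 1 of 31 did, where 2.86% of all genes did, 1.45% higher and 1.42% lower. That gene was Scd1, which in AFFN1 cells was below control on day 14 and above it on day 6, with a difference of the log2 changes of -7.86 ± 0.91 (adjusted p = 0.000364). It was called in all 12 omissions of a library. Its size depends on the 4 control counts of day 6. Without AFFN1 library 1 of day 14 Dhcr7 was called as well (0.49, adjusted p = 0.0493).

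Further genes of the pathway were taken from 5 lists. Of 9 tested sterol efflux and LXR genes on day 14, 3 were higher and 1 was lower in BN1 cells, where 4.95% of all genes were higher and 6.61% lower. Soat1, which esterifies cholesterol for storage, had 11.2, 11.3 and 9.61 CPM in BN1 libraries and 4.71, 7.13 and 3.98 CPM in control libraries (log2 change 1.04 ± 0.20, adjusted p = 0.0152). Mylip, which marks lipoprotein receptors for degradation, had 70.4, 77.4 and 71.3 CPM in BN1 libraries and 26.4, 48.5 and 51.1 CPM in control libraries (0.85 ± 0.19, adjusted p = 0.0266). Rxra, the partner receptor of LXR, had 11.4, 6.79 and 8.68 CPM in BN1 libraries and 5.50, 4.82 and 4.78 CPM in control libraries (0.79 ± 0.19, adjusted p = 0.0314). In all 3 the groups did not overlap. Lpcat3, which remodels phospholipids, was the gene that fell (-0.41 ± 0.12, adjusted p = 0.0485), with 46.8, 47.4 and 45.5 CPM in BN1 libraries and 68.0, 63.1 and 52.7 CPM in control libraries. In AFFN1 cells on day 14 edgeR called none of the 63 tested genes of the 5 lists against control, where 0.558% of all genes were called. At an unadjusted p under 0.05 there were 6, against 12.2% of all genes, and DESeq2 called none, against 2.4% of all genes.

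On day 6, of 8 tested genes of the same list, 1 was higher and 1 lower in BN1 cells, and 3 were higher and 1 lower in AFFN1 cells, where 17.4% and 12.7% of all genes were called. Soat1 had 16.9, 12.5 and 15.0 CPM in BN1 libraries, 25.8, 27.1 and 18.6 CPM in AFFN1 libraries and 5.09, 4.88 and 7.81 CPM in control libraries. Both fusions were above control without overlap, with log2 changes of 1.30 ± 0.22 (adjusted p = 0.00245) in BN1 and 1.99 ± 0.22 (adjusted p = 0.000327) in AFFN1 cells. Abcg1, a sterol exporter, was lower, with 24.8, 30.6 and 27.2 CPM in BN1 libraries, 39.6, 38.7 and 35.1 CPM in AFFN1 libraries and 54.6, 74.5 and 52.1 CPM in control libraries (-1.15 ± 0.14, adjusted p = 0.000402, and -0.68 ± 0.14, adjusted p = 0.0103). Mylip was higher in AFFN1 cells by 0.85 ± 0.20 (adjusted p = 0.0219), with 66.2, 61.2 and 42.5 CPM in AFFN1 libraries and 32.8, 22.8 and 38.2 CPM in control libraries.

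Of the 9 genes of the SREBP machinery, 1 was higher and 1 lower in BN1 cells on day 14, against 11.6% of all genes called. On day 6, 1 was lower in AFFN1 cells, against 4.87% of all genes lower. In BN1 cells on day 6 none was called by edgeR, by DESeq2 or at an unadjusted p under 0.05, against 17.4%, 18.4% and 32.7% of all genes. Scap, the carrier of SREBP, rose in BN1 cells on day 14, with 303, 248.9 and 265.5 CPM in BN1 libraries and 239, 187 and 187 CPM in control libraries (0.40 ± 0.10, adjusted p = 0.0357). Every BN1 library was above every control library. Erlin1, an endoplasmic reticulum protein tied to sterol sensing, fell in BN1 cells on day 14, with 26.2, 22.0 and 21.1 CPM in BN1 libraries and 36.2, 33.0 and 25.5 CPM in control libraries (-0.46 ± 0.13, adjusted p = 0.0491). It fell in AFFN1 cells on day 6, with 26.4, 24.5 and 29.4 CPM in AFFN1 libraries and 37.2, 42.1 and 34.4 CPM in control libraries (-0.51 ± 0.10, adjusted p = 0.00976). The groups overlapped on day 14 and not on day 6. Of the 12 genes of the isoprenoid branch, which leaves the mevalonate branch for ubiquinone, dolichol and protein prenylation, 2 fell in BN1 cells on day 14, against 6.61% of all genes. Pdss1, which makes the tail of ubiquinone, had 5.77, 5.39 and 5.64 CPM in BN1 libraries and 13.6, 9.93 and 9.42 CPM in control libraries (-0.96 ± 0.20, adjusted p = 0.0201). Rabggtb, a subunit of the enzyme that prenylates Rab proteins, had 6.62, 8.26 and 11.3 CPM in BN1 libraries and 18.3, 12.8 and 14.7 CPM in control libraries (-0.83 ± 0.21, adjusted p = 0.0324). On day 6 Icmt, a methyltransferase of prenylated proteins, was the 1 gene of this list called against control, where 17.4% of all genes were called in BN1 and 12.7% in AFFN1 cells. Icmt was higher in AFFN1 cells, with 92.5, 88 and 86.2 CPM in AFFN1 libraries and 78.9, 73.0 and 70.6 CPM in control libraries (0.26 ± 0.07, adjusted p = 0.0479). Of the 12 tested genes of intracellular sterol transport 1 was called in BN1 cells on day 6 against control, where 17.4% of all genes were called. By edgeR none was called in AFFN1 cells on day 6 (12.7% of all genes), in BN1 cells on day 14 (11.6%) or in AFFN1 cells on day 14 (0.558%). The called gene was Osbpl8, a lipid transfer protein, higher with 159, 143 and 175.5 CPM in BN1 libraries and 101, 86.6 and 125 CPM in control libraries (0.60 ± 0.13, adjusted p = 0.0118).

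Among the other genes of fatty acid synthesis and lipid assembly, 2 of 21 tested genes were higher and 5 lower in BN1 cells on day 14, against 4.95% and 6.61% of all genes. Gpam, which starts the building of glycerolipids, had 724, 670.3 and 442 CPM in BN1 libraries and 241, 524 and 259 CPM in control libraries (log2 change 0.88 ± 0.20, adjusted p = 0.0262). BN1 was higher in each pair, although the groups overlapped. Elovl1, an elongase of very long fatty acids, had 87.5, 87.3 and 72.2 CPM in BN1 libraries and 159.6, 105 and 106 CPM in control libraries (-0.58 ± 0.13, adjusted p = 0.0222). Hsd17b12, a reductase of the elongation cycle, had 56.9, 49.7 and 53.6 CPM in BN1 libraries and 98.0, 72.1 and 68 CPM in control libraries (-0.57 ± 0.12, adjusted p = 0.0221). Neither of these overlapped between the groups. On day 6, 1 of 22 tested genes was higher and 5 lower in BN1 cells, against 17.4% of all genes called, and 1 was higher and 3 lower in AFFN1 cells, against 12.7%. Acsl1, which activates long fatty acids, had 62.1, 76.0 and 77.6 CPM in BN1 libraries, 73.7, 66.2 and 107.5 CPM in AFFN1 libraries and 139, 168 and 108 CPM in control libraries (-0.96 ± 0.20, adjusted p = 0.0104, and -0.75 ± 0.20, adjusted p = 0.0363). Both fusions were below every control library. Gpam was higher in BN1 cells on day 6 as well (0.70 ± 0.19, adjusted p = 0.029), with 526, 522 and 626 CPM in BN1 libraries and 325, 245 and 453 CPM in control libraries. Slc25a1, which carries citrate out of mitochondria for lipid synthesis, was lower in BN1 cells on day 6, with 154, 196 and 163 CPM in BN1 libraries and 286, 304 and 219.8 CPM in control libraries (-0.67 ± 0.15, adjusted p = 0.0109). In AFFN1 cells Mlxip, a glucose-responsive transcription factor, was higher by 0.54 ± 0.10 (adjusted p = 0.00745), with 220.2, 210.1 and 195.5 CPM in AFFN1 libraries and 153, 147 and 130.3 CPM in control libraries. Mid1ip1, an activator of acetyl-CoA carboxylase, was lower, with 57.6, 57.8 and 47.6 CPM in AFFN1 libraries and 72.5, 65.5 and 73.7 CPM in control libraries (-0.38 ± 0.10, adjusted p = 0.0261).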

How the data were processed

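RNA of sorted cells was sequenced with a TruSeq stranded mRNA kit, per the labels' protocols. Expected counts per gene were made by the authors with STAR and RSEM on mm10, and DESeq2 is named too, per the submitters' processing notes. No source used here states tool versions, gene models or the use of strand in counting. In each library 1.74% to 2.12% of the values were not whole, and all were rounded.

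The main tests used edgeR 4.0.16 (quasi-likelihood, robust, TMM scaling, filterByExpr; limma 3.58.1, R 4.3.3), with Benjamini-Hochberg adjustment over all tested genes and calls at an adjusted p under 0.05. Day 6 was fitted over its 9 libraries without a block, and day 14 over its 9 libraries with the library number as a block. Differences across days were fitted over all 18 libraries with that block within day 14. On day 14 equal numbers share a code in the labels' descriptions, and deviations from group means correlated at 0.291 to 0.614 for equal numbers and -0.503 to 0.0142 for different numbers. SE is the log2 change over the square root of the F statistic. Alternatives were DESeq2 1.42.0, other scaling, no filter, no robust estimation, other blocks, a joint fit, and omitted libraries. The tests were tried on simulated data first. Within groups, library pairs differed by 3.84 to 122 chi-square units per degree of freedom, more than sampling noise. Counting intervals cover counting error only.

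The 32 genes, the role groups, the 5 lists of further pathway genes and the marker lists were chosen with earlier results of these data known. All 32 genes were to be named; those given in full were up to 8 called genes per comparison with the largest change whose higher group averaged 5 CPM or more, and up to 3 called genes of each further list per comparison of a fusion with control. Other genes are shown beside a result and were picked after their values were seen. Promoter windows were read from RefSeq and gene positions from GENCODE M21, in which 99.85% of the gene IDs were found; Python 3.11.15 was used for both.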

Additional observations from a re-analysis of the deposited data

Results flagged for a closer look

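The effect of a fusion against control differed between day 14 and day 6 for 5 pairs of a gene and a fusion, among the 31 genes and the further pathway genes tested, by edgeR's interaction test over all 18 libraries. Scd1 had a difference of log2 changes of -7.86 ± 0.91 for AFFN1 (adjusted p = 0.000364), with AFFN1 below control on day 14 and above it on day 6. Scap had a difference of 0.54 ± 0.11 for AFFN1 (adjusted p = 0.0151) and of 0.44 ± 0.11 for BN1 (adjusted p = 0.0311), with both fusions above control on day 14. Lpcat3 had a difference of -0.59 ± 0.14 for BN1 (adjusted p = 0.0171), with BN1 below every control library on day 14 and above every control library on day 6. Soat1 had a difference of -1.44 ± 0.29 for AFFN1 (adjusted p = 0.0125), with AFFN1 above control on both days by less on day 14. Day and cell source cannot be told apart in these differences.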

How the results depend on the processing

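No gene of the set changed direction in a called comparison under any alternative run. With RLE in place of TMM scaling the number of genes called was the same in all 9 comparisons. Of the 31 genes, BN1 against control on day 6 had 3 called, against 17.4% of all genes. It had 6 with DESeq2 (18.4% of all genes), 1 without the low-count filter (10.9%) and 1 with all 18 libraries in 1 fit (14.3%). It had 11 without the libraries numbered 3 (32.2%, all genes 3890 against 2095). AFFN1 against control on day 6 had 3 (12.7% of all genes), and 5 with DESeq2 (14.6%) and 7 without the libraries numbered 3 (32.1%, all genes 3873 against 1528). The replicate block on day 6, where numbers do not pair the libraries (correlations -0.321 to 0.351 for equal numbers), gave 3, 3 and 5 calls for BN1 against control, AFFN1 against control and BN1 against AFFN1, where 14.9%, 11.2% and 10.2% of all genes were called. BN1 against control on day 14 had 6 (11.6% of all genes), and 0 with no replicate block (0.0257%, all genes 3 against 1348). It had 2, 0 and 3 without the libraries numbered 1, 2 and 3 (5.07%, 1.22% and 5.87% of all genes). AFFN1 against control on day 14 had 0 (0.558% of all genes), and 1 each with DESeq2 (2.4%), without robust estimation (0.558%), without the libraries numbered 1 (2.25%) and with all 18 libraries in 1 fit (1.37%). BN1 against AFFN1 on day 14 had 0 (0.18% of all genes), and 1 without the low-count filter (1.1%) and 2 with DESeq2 (2.35%). It had 2 without the libraries numbered 1 (1.1%) and 3 with all 18 libraries in 1 fit (2.91%). With no replicate block AFFN1 against control and BN1 against AFFN1 on day 14 both had 0 (0.0429% and 0% of all genes). Day 14 against day 6 in control cells then had 23 (43.9% of all genes), against 27 (52.6%) in the main fit. Leaving out 1 library at a time gave 0 to 12, 2 to 5 and 2 to 6 calls on day 6 for BN1 against control, AFFN1 against control and BN1 against AFFN1, and 0 to 6, 0 to 1 and 0 to 1 on day 14. The shares of all genes were 9.31% to 28.6%, 6.02% to 18.4% and 5.92% to 8.53% on day 6, and 0.236% to 11.3%, 0.00842% to 0.699% and 0% to 0.176% on day 14. Such omissions gave 25 to 29 between the days in control cells (41.5% to 48.1% of all genes), 0 to 1 for the BN1 effect (4.36% to 6.09%) and 1 to 2 for the AFFN1 effect between the days (1.55% to 2.92%). The cause of these changes was not tested. Promoter shares in a window from 150 bases before the start were 61.3% against 28.6% for ATTGG and 3.23% against 0.834% for the SRE letters. Genes near 0, such as Scd1 on day 6 and Me1, are limited by depth.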

Other observations

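Genes of the further pathway lists were also compared between day 14 and day 6 in control cells, where day and cell source cannot be told apart. Of all genes 52.6% were called, 25.6% higher and 27% lower (edgeR, adjusted p under 0.05). Differences between the lists were not tested. Of 22 genes of other fatty acid synthesis and lipid assembly, 10 were higher and 1 was lower on day 14. Agpat2, which makes phosphatidic acid, changed by 1.55 ± 0.17 (adjusted p = 4.07e-06), the elongase gene Elovl1 by 1.43 ± 0.15 (adjusted p = 2.22e-06) and Tecr, a reductase of fatty acid elongation, by 1.24 ± 0.09 (adjusted p = 8.24e-08), on the log2 scale. The gene that was lower was Dgat1, which makes triglyceride (-0.64 ± 0.17, adjusted p = 0.00537).

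Of 12 genes of the isoprenoid branch, 2 were higher and 6 lower on day 14, with a median log2 change of -0.38. Rabggtb was the gene that fell furthest (-1.06 ± 0.19, adjusted p = 0.000229), and Fntb, a subunit of farnesyltransferase, was higher (0.53 ± 0.11, adjusted p = 0.00131). Of 9 sterol efflux and LXR genes, 4 were higher and 1 was lower. Abcg1 was higher by 1.61 ± 0.15 (adjusted p = 6.43e-07), and Rxra was lower (-0.66 ± 0.18, adjusted p = 0.00568). Of 12 genes of lysosomal and intracellular sterol transport, 4 were higher and 2 lower, led by Scarb1, a lipoprotein receptor (1.19 ± 0.11, adjusted p = 5.38e-07), and Npc2, a lysosomal sterol carrier (1.11 ± 0.12, adjusted p = 3.38e-06). Of 9 genes of the SREBP machinery, 1 was higher and 2 were lower, and Insig2, the relative of Insig1, changed most (-1.30 ± 0.18, adjusted p = 2.84e-05).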
